A study of Mus musculus with 21 samples.

Results

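The 10 genes described here mark intestinal stem cells or are targets of Wnt signalling: Lgr5, Ascl2, Olfm4, Axin2, Smoc2, Sox9, Rnf43, Znrf3, Lrig1 and Ephb2. They were chosen by name, and all 10 were found among the 25361 gene identifiers of a raw count table of mRNA sequencing of mouse cecum, the blind-ended chamber that joins the small to the large bowel. C57BL/6 mice, a common inbred strain, were 3 weeks old when they were put on the Total Western Diet, a rodent diet modelled on the nutrient intake of people in the United States, for 6 weeks. For 3 more weeks the diet held 0% (6 mice), 0.5% (5), 1.0% (5) or 2.5% (5) broccoli powder, and the study asked how the vegetable relates to gut microbes and host tissue. The mice on 0% had the same Western diet throughout, so every comparison is within that diet, and no group on a standard chow was used here. Libraries held between 28514263 and 58594569 counts, and the 9 members other than Olfm4 had at least 81 counts in every library.

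The lining of the cecum is renewed by stem cells at the base of its crypts. Wnt proteins bind Frizzled and Lrp receptors on these cells and keep beta-catenin from being degraded, and beta-catenin then works with Tcf transcription factors to switch on target genes. Rnf43 and Znrf3 are ubiquitin ligases that remove Frizzled receptors from the cell surface, and R-spondins, bound by Lgr receptors such as Lgr5, take these ligases away. In the mouse, Lgr5 and Ascl2 mark crypt base stem cells of both the small and the large bowel, whereas Olfm4 marks those of the small intestine and is scarcely made in the mouse large bowel.

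All 10 genes are protein coding, and on GRCm38 (mm10) 4 of them lie on chromosome 11: Axin2 at chr11:108920349-108950783 and Sox9 at chr11:112782224-112787760, both on the plus strand, Rnf43 at chr11:87662722-87735539 on the plus strand, and Znrf3 at chr11:5276324-5444847 on the minus strand. On the minus strand lie also Lgr5 at chr10:115450311-115587780, Ascl2 at chr7:142966829-142969264, Lrig1 at chr6:94604529-94700158 and Ephb2 at chr4:136647539-136835988. Olfm4 at chr14:79984081-80023139 and Smoc2 at chr17:14279506-14404790 are on the plus strand. Exons of Lrig1 share 144 bases with those of Slc25a26 on the opposite strand. Those of Axin2 share 209 bases with an antisense gene, and those of Olfm4 share 153 bases with a lincRNA on its own strand; neither of these has a row in the table. The libraries mark strand, but whether strand was used in counting is not stated, so the counts of Lrig1 and Axin2 may hold reads of the opposite strand.

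The 250 bases before the RefSeq start (GRCm38.p6) were available for 6 of the 10 genes, with a pair of starts for Rnf43. Olfm4 and Axin2 are shown because their levels set single libraries apart most clearly in what follows. The Olfm4 window is chr14:80000052-80000301 and the Axin2 window chr11:108920099-108920348, both on the plus strand and written 5′ to 3′. The RefSeq start of Olfm4 lies inside the GENCODE gene given above. No letter is in capitals, since neither window holds the motif searched for.

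Olfm4: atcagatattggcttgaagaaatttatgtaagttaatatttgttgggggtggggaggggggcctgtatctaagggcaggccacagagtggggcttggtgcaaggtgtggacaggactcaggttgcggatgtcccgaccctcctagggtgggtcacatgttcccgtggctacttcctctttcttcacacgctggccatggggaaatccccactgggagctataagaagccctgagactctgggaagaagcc
Axin2: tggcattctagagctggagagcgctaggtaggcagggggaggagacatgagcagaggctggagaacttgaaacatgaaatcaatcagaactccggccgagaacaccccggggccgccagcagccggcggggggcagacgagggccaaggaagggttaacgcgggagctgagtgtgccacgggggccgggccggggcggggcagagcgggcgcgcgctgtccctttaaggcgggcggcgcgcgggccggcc

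The motif was that of Tcf and Lef factors, CTTTGAT or CTTTGAA, on either strand. None of the 7 windows of the 6 genes held it, against 7.48% of all 32851 RefSeq windows of this length, which says only that these letters are not in these windows. The Axin2 window had 69.2% G and C and 24 CpG pairs, and the Olfm4 window 54.0% and 4, with medians of 52.4% and 6 over all windows. Those of Ascl2 (67.6%), Ephb2 (68.4%) and Lrig1 (71.6%) were as rich in G and C as that of Axin2, and those of Rnf43 lay at 44.4% and 45.2%.

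In every cecum library Car1, a carbonic anhydrase of colonocytes and a marker of large bowel epithelium, stood between 2868 and 5790 CPM (counts scaled by the library total and its TMM factor). In 6 libraries, spread over all 4 diets, genes of the ileum, the last part of the small intestine, were high as well. They are 0% replicate 5, 0.5% replicates 1 and 4, 1.0% replicate 1 and 2.5% replicates 1 and 2, and they were known for this from earlier analysis of these data. An ileal enterocyte score, the mean log2 CPM of 6 markers, lay between 2.57 and 5.27 in these 6 libraries and between -0.58 and 0.88 in the other 15. Fabp6, which binds bile acids in ileal cells, ranged from 9.43 to 71.7 CPM in the 6 and from 0.11 to 1.84 CPM in the 15. Summed CPM of the 6 ileal markers was 185 to 803 in the 6 libraries and 64.4 to 119 in the 15. Paneth cells are the antimicrobial cells at the base of small intestinal crypts. A score of 7 of their markers ranged from -1.18 to 4.14 in the 6 and from -2.81 to -1.69 in the 15. In the 15 the defensins Defa17 and Defa30 had no count at all, but other markers of the list did. Summed CPM of the 7 Paneth markers overlapped, at 10.8 to 352 in the 6 and 4.53 to 26.6 in the 15.

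The length of a gene was taken as the merged exons of all its annotated transcripts, 4135 bases for Sox9 and 12608 for Ephb2. The order that follows depends on this choice. Before division by length Ephb2 lay above Sox9, and Lgr5, at a median of 33.0 CPM, above Znrf3 at 30.8 CPM. Per kilobase of exon, Sox9 had the highest level of the 10 genes, with a median of 13.2 CPM per kb over the 21 libraries. It exceeded Ephb2 in 21 of 21. Ephb2 (9.07 CPM per kb) exceeded Lrig1 (7.77) in 17, Lrig1 exceeded Rnf43 (7.12) in 17, and Rnf43 exceeded Znrf3 (3.90) in 21. Znrf3 lay above Lgr5 (3.21) in 20 libraries. Lgr5 and Axin2 (3.17) could not be put in order, since Lgr5 was the higher of the pair in 12 libraries and Axin2 in 9. Smoc2 followed at 2.52, below Axin2 in 20 libraries, and Ascl2 at 2.06, below Smoc2 in 15. Olfm4 came last, with a median of 0.021 CPM per kb and a range up to 26.5.

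None of the 9 members other than Olfm4 differed between diets at an adjusted p under 0.05 (edgeR's quasi-likelihood test, Benjamini-Hochberg adjustment over 15652 genes). Olfm4 passed the filter on low counts only through the 6 libraries with ileal signal, so it is left out of these counts. They were 0 of 9 at 0.5%, 1.0% and 2.5% against 0%. They were also 0 of 9 for the slope of log2 expression per 1% powder and for any difference among the 4 diets. Over all genes tested, the shares called in these 5 comparisons were 0.00639%, 0%, 0.109%, 0.147% and 0.0256%. A count of 0 among 9 genes is therefore near the background. None of the 9 reached an unadjusted p under 0.05 either, while 7.14%, 3.18%, 8.43%, 7.32% and 6.41% of all genes did. For 9 members the 95% intervals were narrow. At 2.5% they ran from 0.721 to 1.48 times the 0% level in the widest cases, at 1.0% from 0.685 to 1.37 times and at 0.5% from 0.684 to 1.57 times. In none of the 10 genes did the libraries of a broccoli diet all lie beyond the 6 libraries on 0%, which 0.505%, 0.179% and 0.664% of all genes did at 0.5%, 1.0% and 2.5%. The sample is a piece of whole tissue, so fewer cells of a type and less RNA per cell cannot be told apart.

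**Figure D1:**
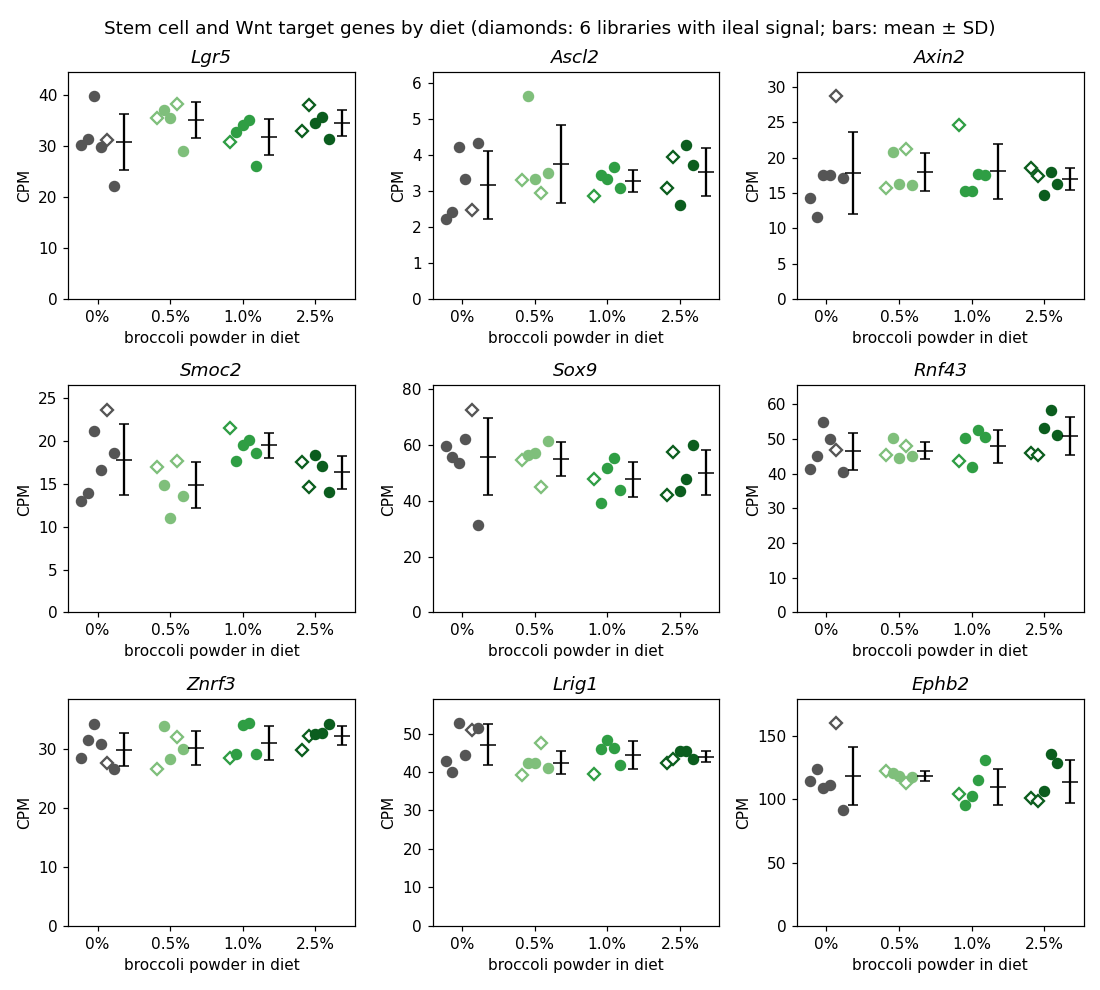
CPM of 9 members (y axes, from 0) in each of the 21 libraries, by broccoli powder in the diet (x axes), with the mean ± SD of each diet as bars. Diamonds are the 6 libraries with ileal signal; the diets overlap in every panel, and Axin2 is highest in 0% replicate 5 at 28.7 CPM and next highest in 1.0% replicate 1 at 24.6 CPM.

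Lgr5, the R-spondin receptor that marks crypt base stem cells, stood at a lowest of 22.2, a median of 30.8 and a highest of 39.8 CPM on 0%. On 0.5% its 5 libraries had 35.5, 37.2, 35.5, 38.2 and 29.1 CPM, and on 1.0% they had 30.8, 32.9, 34.1, 35.1 and 26.1 CPM. On 2.5% they had 33.0, 38.0, 34.6, 35.7 and 31.5 CPM. All 5 libraries on 2.5% lay above the median of the 6 libraries on 0%, but none lay above the highest of them. Znrf3 at 2.5% and Ascl2 at 0.5% also had all 5 above that median, and Lrig1 at 0.5% had none above it. The share of all genes with such a split was not computed, here or for the members below. The Lgr5 mean was 34.5 ± 2.51 CPM on 2.5% (SD, n = 5) and 30.8 ± 5.59 CPM on 0% (n = 6). The log2 change was 0.16 ± 0.11 (SE), with a 95% interval from -0.056 to 0.38 and an adjusted p of 0.688 by edgeR. At 0.5% the log2 change was 0.19 ± 0.11 (adjusted p = 0.705 by edgeR) and at 1.0% it was 0.044 ± 0.11, so the 3 doses followed no order. Leaving out 1 library moved the change at 2.5% between 0.086 (without 0% replicate 6) and 0.25 (without 0% replicate 3).

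Ascl2 is the transcription factor that works with Wnt signals to maintain the stem cell state. Summed over the 21 libraries it had the fewest counts of the members, 2888 against 6952 for Olfm4. Per library, Ascl2 had between 81 and 230 counts. Its means were 3.17 ± 0.94 CPM on 0% (SD, n = 6), 3.74 ± 1.08 on 0.5%, 3.28 ± 0.31 on 1.0% and 3.52 ± 0.68 on 2.5% (n = 5 each). The highest value of all, 5.63 CPM, belonged to 0.5% replicate 2, and the other 4 libraries on that diet lay between 2.93 and 3.50 CPM. The widest intervals of the 9 members were those of Ascl2, from -0.16 to 0.65 in log2 terms at 0.5% and from -0.25 to 0.56 at 2.5%. The log2 change at 0.5% was 0.24, or 0.047 without replicate 2 of that diet.

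Sox9, a transcription factor of crypt base and Paneth cells that Wnt signals induce, had a mean of 55.8 ± 13.7 CPM on 0%, 54.9 ± 6.18 on 0.5%, 47.6 ± 6.36 on 1.0% and 50.1 ± 8.14 on 2.5%. On 1.0% all 5 libraries, at 47.8, 39.2, 51.8, 55.4 and 43.9 CPM, lay below the median of 57.8 CPM on 0%. The 6 libraries on 0% had the widest range of any diet, with a lowest of 31.3 CPM in replicate 6 and a highest of 72.6 CPM in replicate 5. The log2 change at 1.0% was -0.23 ± 0.15, with a 95% interval from -0.55 to 0.084 and an adjusted p of 0.999 by edgeR, and it was -0.14 without 0% replicate 5 and -0.35 without 0% replicate 6. At 2.5% it was -0.16 ± 0.15 (adjusted p = 0.792 by edgeR), and -0.068 without 0% replicate 5 and -0.28 without 0% replicate 6.

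The 3 negative feedback genes of the pathway differed in how steady they were. Znrf3 varied least after Lrig1, with a within-diet SD of 0.12 in log2 CPM, and Rnf43 followed at 0.14. The SD of Axin2, a scaffold of the complex that degrades beta-catenin and a Wnt target in many tissues, was 0.30, while the median over all genes tested was 0.21. Rnf43 averaged 46.4 ± 5.35 CPM on 0%, 46.6 ± 2.39 on 0.5%, 47.8 ± 4.75 on 1.0% and 50.8 ± 5.42 on 2.5%. On 2.5% its libraries had 45.9, 45.3, 53.1, 58.4 and 51.1 CPM, and those on 0% had a lowest of 40.5, a median of 45.9 and a highest of 54.8 CPM. The log2 slope of Rnf43 per 1% powder, 0.054 ± 0.031, had the lowest p of the 10 members' slopes (0.093, adjusted p = 0.762 by edgeR), and was 0.031 without 2.5% replicate 4. Znrf3 averaged 29.8 ± 2.84, 30.1 ± 2.91, 30.99 ± 2.90 and 32.2 ± 1.596 CPM from 0% to 2.5%, and its slope was 0.045 ± 0.029 in log2 terms (adjusted p = 0.796 by edgeR).

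The higher Rnf43 values on 2.5% fell in libraries with more cell cycle transcripts. Replicates 3, 4 and 5 on 2.5%, at 53.1, 58.4 and 51.1 CPM of Rnf43, had cycling scores (mean log2 CPM of 14 genes such as Mki67 and Top2a) of 4.16, 4.22 and 3.89. Replicates 1 and 2 on that diet, at 45.9 and 45.3 CPM, had scores of 3.45 and 3.75. Scores of 8 immediate early genes, which respond to stress and handling, reached 7.16, 7.65 and 7.29 in replicates 3, 4 and 5 but only 6.01 and 6.33 in the remaining pair, which carry ileal signal. Over all 21 libraries Rnf43 and the cycling score had a Pearson's r of 0.57 (permutation p = 0.0074) and a Spearman's rho of 0.55. Adjusted permutation p were 0.196 and 0.478 over 47 relations. These 47 include relations of Olfm4 with the ileal score, which are a description with no test. Adjusted values without them were not computed, here or for the other members and scores. Without the 2 libraries farthest from the median score r was 0.46, and with the diet means subtracted it was 0.53. With library totals as the scaling r was 0.64 and rho 0.68, with adjusted permutation p of 0.052 and 0.037. Over these 47 relations only rho passed, and r lay near the threshold. With that scaling Smoc2 and the epithelium score (mean log2 CPM of 9 genes) gave the same adjusted values, at r = 0.65 and rho 0.66. With the main scaling r and rho of Smoc2 with that score were both 0.34, with adjusted permutation p of 0.495 and 0.478. The part of cell cycle, immediate early or ileal transcripts in the Rnf43 values was not tested.

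Axin2 on 0% had a lowest of 11.6, a median of 17.3 and a highest of 28.7 CPM. It had 15.7, 20.8, 16.3, 21.2 and 16.2 CPM on 0.5%, and 24.6, 15.2, 15.2, 17.7 and 17.5 CPM on 1.0%. On 2.5% it had 18.5, 17.5, 14.7, 17.9 and 16.3 CPM. The 2 highest of the 21 values, 28.7 CPM in 0% replicate 5 and 24.6 CPM in 1.0% replicate 1, came from the 2 libraries with the highest ileal scores, 5.03 and 5.27. The log2 changes were 0.013 ± 0.17 at 0.5%, 0.017 ± 0.17 at 1.0% and -0.071 ± 0.17 at 2.5%, and their adjusted p were 0.991, 0.999 and 0.928 by edgeR. Without the 6 libraries with ileal signal the log2 change at 2.5% was 0.061, and it did not pass. On 2.5% that fit kept only replicates 3, 4 and 5. Their immediate early scores, 7.16, 7.65 and 7.29, were the highest of the 21 libraries, and their part in the change was not tested.

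**Figure D2:**
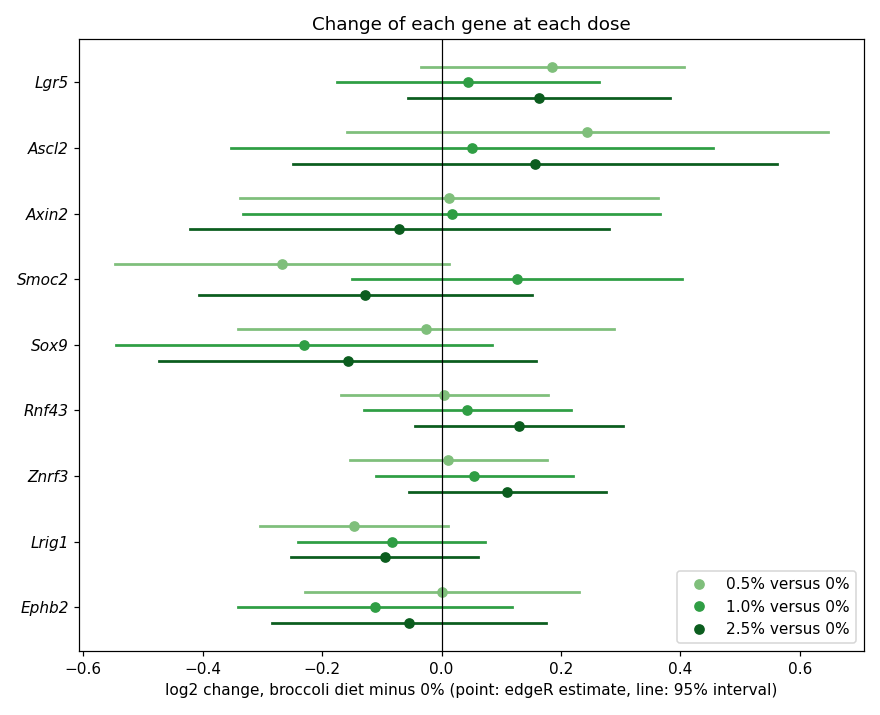
Log2 change of 9 members (rows) at 0.5%, 1.0% and 2.5% broccoli powder against 0% (x axis), with points for edgeR's estimate and lines for the 95% interval. Every line crosses 0; those of Ascl2 are the widest and run from -0.16 to 0.65 at 0.5%, from -0.35 to 0.45 at 1.0% and from -0.25 to 0.56 at 2.5%.

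Smoc2, a secreted matricellular protein of the stem cell signature, had the lowest p of the members for any difference among the 4 diets (0.056, adjusted p = 0.783 by edgeR). On 0% it had a lowest of 13.05, a median of 17.6 and a highest of 23.7 CPM. It had 16.96, 14.9, 11.1, 17.7 and 13.6 CPM on 0.5%, and 21.6, 17.7, 19.6, 20.1 and 18.6 CPM on 1.0%. On 2.5% the values were 17.5, 14.7, 18.4, 17.1 and 14.03 CPM. All 5 libraries on 1.0% lay above the median on 0%, and 4 of 5 on each of the other broccoli diets lay below it, so the doses did not line up. The log2 change was -0.27 ± 0.14 at 0.5%, 0.13 ± 0.13 at 1.0% and -0.13 ± 0.14 at 2.5%, with adjusted p of 0.690, 0.999 and 0.812 by edgeR. Without 0% replicate 5 these changes were -0.17, 0.22 and -0.030.

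Lrig1, which restrains signalling by the EGF receptor family in stem cells, was the steadiest member, with a within-diet SD of 0.12 in log2 CPM that 14.9% of genes undercut. Its means were 47.0 ± 5.33 CPM on 0%, 42.5 ± 3.11 on 0.5%, 44.4 ± 3.58 on 1.0% and 44.02 ± 1.395 on 2.5%. All 5 libraries on 2.5%, between 42.4 and 45.6 CPM, lay inside the 0% range of 39.99 to 52.7 CPM and below its median of 47.6 CPM. The log2 change at 2.5% was -0.095 ± 0.076 (95% interval -0.25 to 0.062, adjusted p = 0.749 by edgeR), and at 0.5% it was -0.15 ± 0.076 (adjusted p = 0.699 by edgeR).

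Ephb2, the receptor whose ephrin signals keep crypt cells in their place, had the most counts of the members, with 118.5 ± 23.1 CPM on 0%, 118.6 ± 3.66 on 0.5%, 109.7 ± 13.99 on 1.0% and 114 ± 17.05 on 2.5%. The values on 0.5%, 122, 121, 119, 113 and 118 CPM, were the closest together. Those on 0% spread from 91.4 CPM in replicate 6 to 160.3 CPM in replicate 5, with a median of 113 CPM. The log2 changes were 0.00037 ± 0.11 at 0.5%, -0.11 ± 0.11 at 1.0% and -0.054 ± 0.11 at 2.5%, and none passed. That at 2.5% was 0.17 without the 6 libraries with ileal signal, and did not pass. On 2.5% that fit kept only replicates 3, 4 and 5, those with the highest immediate early scores, and their part was not tested. Across libraries Ephb2 had r = 0.51 (rho 0.50) with the cycling score and r = -0.48 (rho -0.40) with the smooth muscle score, and neither passed, with adjusted permutation p of 0.222 for both r and 0.478 for both rho. Without the 2 libraries farthest from the median score these r were 0.39 and -0.28.

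Many of the highest and lowest values came from the mice without broccoli, which number 6 against 5 on each other diet. For 6 of the 9 members the highest of the 21 libraries was on 0%, for 6 the lowest was, and for 6 the SD in CPM was larger on 0% than on any broccoli diet. Over all 15652 genes tested these shares were 37.5%, 39.1% and 40.2%, and the difference from the 9 members was not tested. Ascl2, Rnf43 and Znrf3 had their largest SD on a broccoli diet. Replicate 5 on 0% was the highest library for Axin2, Smoc2, Sox9 and Ephb2, and replicate 6 on 0% the lowest for Lgr5, Sox9, Rnf43 and Ephb2. Replicate 6 also had the fewest counts of all libraries and the highest smooth muscle score, 6.94, and replicate 5 carried ileal signal. Over all libraries the highest level was 1.29 times the lowest for Znrf3, 1.35 times for Lrig1, 1.44 times for Rnf43, and up to 2.53 times for Ascl2.

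Olfm4, a secreted glycoprotein, was counted almost entirely in 6 libraries. In the 15 libraries without ileal signal it had between 0 and 5 counts, 26 in all, and 6 of them had none. A count of 0 allows a level of up to 3 counts, for example 0.082 CPM in 0% replicate 1. In the 6 libraries with ileal signal it had 2248 counts (49.2 CPM) in 0% replicate 5, 248 (7.69 CPM) and 579 (14.5 CPM) in 0.5% replicates 1 and 4, 3304 (78.5 CPM) in 1.0% replicate 1, and 335 (9.81 CPM) and 212 (6.14 CPM) in 2.5% replicates 1 and 2. Those 6 libraries held 99.6% of all Olfm4 counts, and none of the other 15 came near the lowest of them. Olfm4 entered the test only through those libraries, and no estimate could be had without them. Its within-diet SD of 3.95 in log2 CPM was above that of 99.99% of genes.

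**Figure D3:**
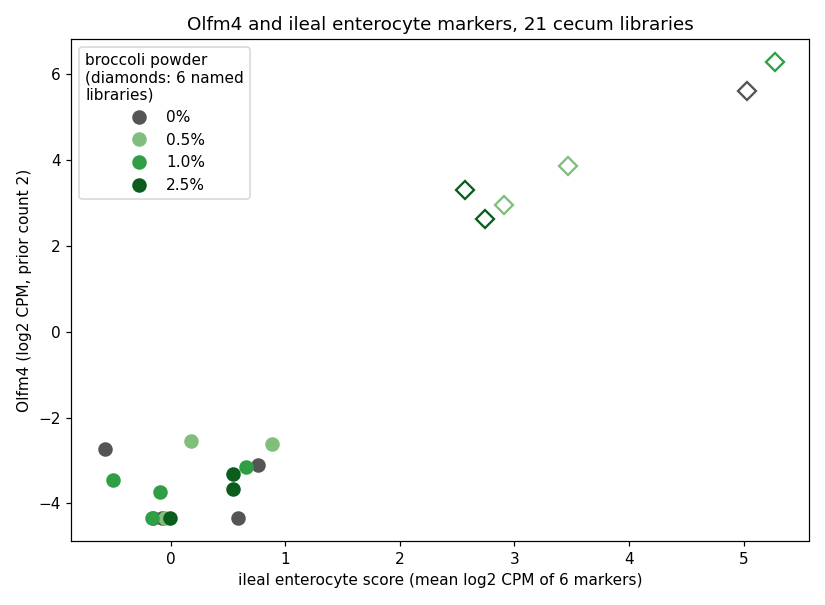
Olfm4 in log2 CPM (y axis, prior count 2) against the ileal enterocyte score (x axis, mean log2 CPM of 6 markers) in 21 cecum libraries, coloured by diet. The 6 diamonds, which come from all 4 diets, lie at scores of 2.57 to 5.27 and 6.14 to 78.5 CPM of Olfm4, apart from the 15 circles, which lie at or under 0.122 CPM.

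The diets could not be compared for Olfm4 with any precision. Its log2 change at 2.5% against 0% was -1.39 ± 2.15, with a 95% interval from -5.93 to 3.16, and those at 0.5% and 1.0% were -0.91 ± 2.10 and 0.91 ± 2.01. With the ileal score as a covariate the log2 change at 2.5% was 2.64, of the opposite sign. With limma voom it was 1.30. No p is given for these changes, since Olfm4 was tested only through the 6 libraries where it is high. Single libraries set the direction: without 0% replicate 5 the log2 change was 6.96 at 0.5% and 6.48 at 2.5%, and without 1.0% replicate 1 that at 1.0% was -7.73. Among the 6 libraries its r with the ileal score was 0.98 and rho 0.83, and r was 0.70 without the 2 highest scores (n = 4). Among the 15 libraries r was 0.28 and rho 0.34. These values are a description with no test, since Olfm4 is high only in the 6 libraries. The genes whose ranks over the 21 libraries were most like those of Olfm4 were Fgf15, the ileal hormone that signals bile acid status to the liver (Spearman's rho 0.89), Naaladl1 (0.85) and Itln1, an intelectin of Paneth and goblet cells (0.84).

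Of the 9 members other than Olfm4, none passed a test of its relation to the ileal score, in the 6 libraries or in the 15. In the 6 libraries Axin2 had r = 0.90 (rho 0.71) and Smoc2 r = 0.90 (rho 0.77), with exact permutation p for r of 0.0194 and 0.0278 and adjusted values of 0.222 for both. Without 0% replicate 5 and 1.0% replicate 1, r was 0.59 for Axin2 and 0.37 for Smoc2 (n = 4), so these values rest on those 2 libraries. In the 15 other libraries r was -0.070 for Axin2 and -0.23 for Smoc2, and the difference between the 6 and the 15 was not tested. Lgr5 had r = -0.70 and Ascl2 r = -0.74 in the 6 libraries, and 0.67 and -0.47 without the same 2 libraries. Median levels in the 6 and in the 15 libraries were 34.3 and 32.9 CPM for Lgr5, 19.9 and 16.3 CPM for Axin2, and 17.6 and 17.1 CPM for Smoc2. The part of ileal tissue in the levels of Axin2 and Smoc2 was not tested.

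**Figure D4:**
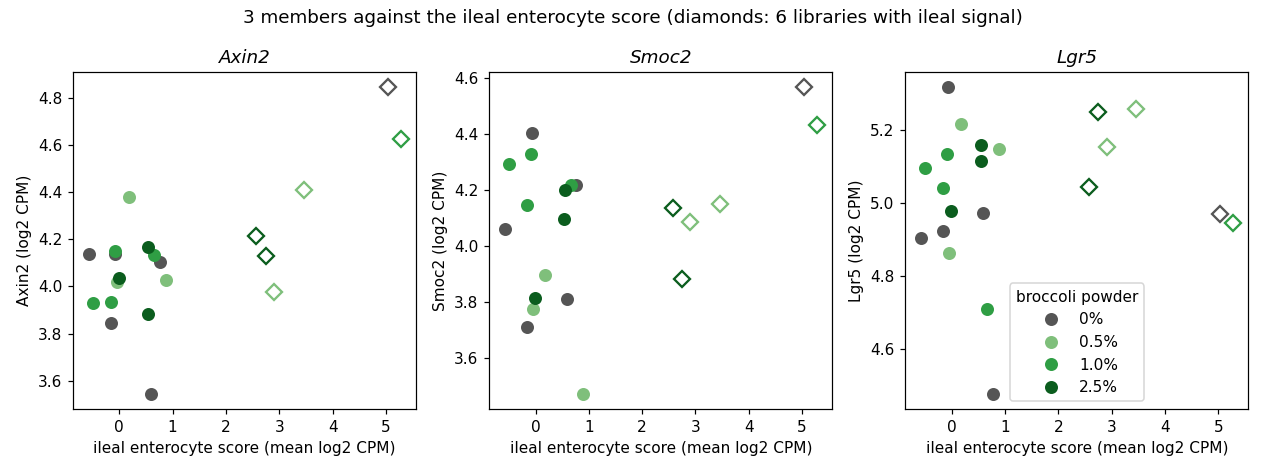
Axin2, Smoc2 and Lgr5 in log2 CPM (y axes) against the ileal enterocyte score (x axes) in 21 libraries, coloured by diet, with diamonds for the 6 libraries with ileal signal. The 2 libraries at scores of 5.03 and 5.27 hold the 2 highest Axin2 and Smoc2 values, 28.7 and 24.6 CPM and 23.7 and 21.6 CPM, while Lgr5 stands near the middle of its range there.

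Between members, 26 of 36 pairs without Olfm4 had a positive Pearson's r across the 21 libraries, and none passed after adjustment over the 36 pairs. The closest were Sox9 with Ephb2 (r = 0.62, rho 0.49), the ligases Rnf43 and Znrf3 (r = 0.56, rho 0.58), Lgr5 with Znrf3 (r = 0.55, rho 0.50) and Axin2 with Smoc2 (r = 0.54, rho 0.48), all with an adjusted permutation p of 0.097 for r and 0.198 for rho. Without the 2 libraries farthest from the median of the first-named gene these r were 0.43, 0.49, 0.41 and 0.34. The r within the 15 libraries without ileal signal are a description with no test. The highest was 0.84 for Ascl2 with Axin2, a pair with r = 0.12 over all 21, followed by 0.73 for Smoc2 with Lrig1. For both Ascl2 and Axin2 the highest of the 15 was 0.5% replicate 2, and r without it was not computed. In the 15 it was 0.71 for Lgr5 with Znrf3, 0.57 for Rnf43 with Znrf3, 0.56 for Sox9 with Ephb2 and 0.26 for Axin2 with Smoc2. The lowest r there were -0.64 for Lrig1 with Ephb2, -0.51 for Sox9 with Lrig1 and -0.49 for Smoc2 with Sox9. Lgr5 and Ascl2, both markers of the same stem cells, had an r of 0.18 (rho 0.28), which was 0.53 without the 2 libraries farthest from the median of Lgr5. It was 0.047 with the diet means subtracted, 0.18 in the 15 libraries and 0.15 with library totals as the scaling. Depth and tissue make-up are common to all genes of a mouse, and their part in these pairs was not tested.

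**Figure D5:**
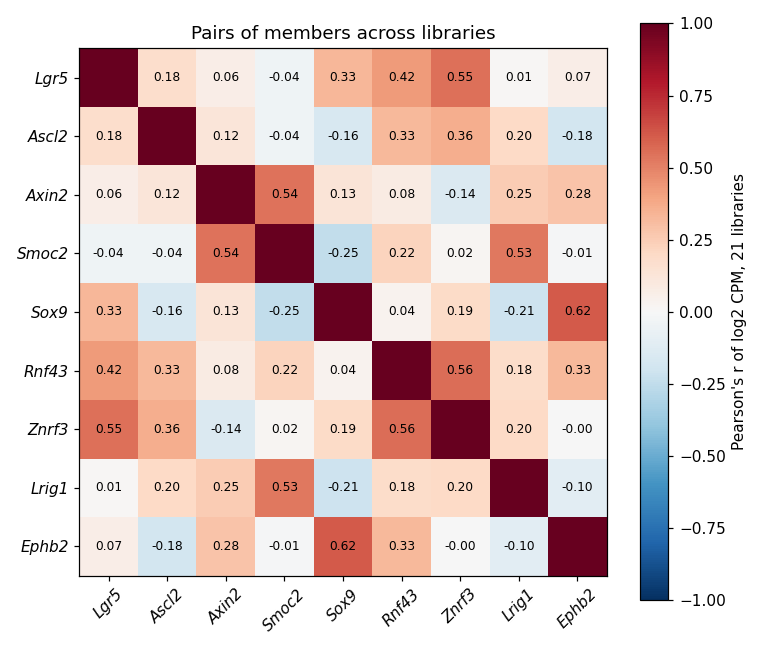
Pearson's r of log2 CPM for each pair of 9 members (rows and columns) over 21 libraries, from blue (-1) to red (1). The highest is 0.62 for Sox9 with Ephb2 and the lowest -0.25 for Smoc2 with Sox9.

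Of all tested genes, those ranked most like each member across the 21 libraries were Sema5a for Lgr5 (Spearman's rho 0.81), Slc25a17 for Ascl2 (0.74), Trpv4 for Axin2 (0.79) and Hid1 for Smoc2 (0.87), and Bhlha15, a transcription factor of secretory cells, came next for Smoc2 (0.82). For Sox9 it was Ssx2ip (0.85), for Rnf43 H1f0, a linker histone (0.82), for Znrf3 Zfp930 (0.84) and for Lrig1 Ajm1 (0.83). Ephb2 was most like Foxa3 (0.86) and Foxa2 (0.83), both forkhead transcription factors of gut epithelium. Each is the highest of 15652 genes less the member itself, and is given as a description. No member was among the 3 genes most like another member.

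The rest of the pathway was read from 9 lists of 138 other genes, of which 123 had enough counts to be tested. None passed in any of the 5 comparisons. Over all genes tested the shares called ran from 0% to 0.147%, so a count of 0 among 123 is near the background. Of the Wnt ligands 11 of 19 could be tested, of R-spondins and Wnt receptors 20 of 21, and of Wnt inhibitors 11 of 15. The beta-catenin core gave 17 of 17, other Wnt target genes 12 of 12 and other stem cell genes 13 of 14. The Notch list gave 10 of 11, BMP and EGF genes of the niche 23 of 23, and Eph receptors and ephrins 7 of 7.

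The lowest p at 2.5% against 0% in each list gave the following values, none of which passed. Jag1, a Notch ligand, had 16.96 ± 1.52 CPM on 2.5% and 20.8 ± 2.27 CPM on 0%, a log2 change of -0.29 ± 0.085 (adjusted p = 0.260 by edgeR). From 0% to 2.5% its means were 20.8, 19.3, 18.7 and 16.96 CPM, and its slope was -0.11 ± 0.032 per 1% powder (adjusted p = 0.277 by edgeR). Apcdd1, a membrane inhibitor and target of Wnt signalling, had 4.78 ± 2.10 CPM on 2.5% and 7.79 ± 1.68 CPM on 0% (adjusted p = 0.507 by edgeR). Tgfa, a ligand of the EGF receptor, had 162 ± 15.1 CPM on 2.5% and 140.3 ± 14.7 CPM on 0% (adjusted p = 0.488 by edgeR). Apc, a scaffold of the complex that degrades beta-catenin, had 202 ± 9.69 and 181 ± 14.9 CPM on 2.5% and 0%, and the Wnt co-receptor Lrp6 had 172 ± 6.38 and 155 ± 14.1 CPM, with adjusted p of 0.507 and 0.533 by edgeR. In the other lists it was Wnt3, a ligand, at 0.512 ± 0.140 and 0.311 ± 0.125 CPM on 2.5% and 0%, the kinase gene Cdk6 at 73.4 ± 3.35 and 66.5 ± 10.9 CPM, and Ephb6 at 0.405 ± 0.351 and 0.603 ± 0.208 CPM.

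Among the listed Wnt inhibitors most estimates were negative. The list holds secreted proteins and also the membrane receptors Kremen1 and Kremen2. Log2 changes at 0.5%, 1.0% and 2.5% were -0.20, 0.021 and -0.031 for Kremen1 and -0.15, -0.066 and -0.24 for Kremen2. Of the 11 tested, 9 had a negative log2 change at 0.5%, 10 at 1.0% and 10 at 2.5%, with medians of -0.20, -0.19 and -0.24, and 7 of 11 slopes were negative. R-spondins and Wnt receptors leaned the same way at 0.5% and 2.5%, with 14 and 16 of 20 negative, and had 11 of 20 at 1.0% and 13 of 20 for the slope. Over all genes 49.2%, 49.4% and 46.9% of changes were positive, with medians of -0.0030, -0.0021 and -0.011. For the slope, 46.9% of all genes were positive, with a median of -0.0040. The 3 comparisons share the 6 libraries on 0%, so they are not separate evidence. Dkk3, a Dickkopf family member, had 24.9 ± 4.73 CPM on 2.5% and 29.9 ± 4.39 CPM on 0% (log2 change -0.26 ± 0.12, adjusted p = 0.545 by edgeR), and 22.3 ± 2.76 CPM on 0.5%. Sostdc1, an inhibitor of Wnt and BMP signals, had the lowest p of this list for the slope, -0.16 ± 0.094 per 1% powder (adjusted p = 0.759 by edgeR). Fibroblast scores, the mean log2 CPM of 6 genes, were 5.79 ± 0.26, 5.71 ± 0.20, 5.61 ± 0.15 and 5.69 ± 0.44 from 0% to 2.5%. Smooth muscle scores, of 8 genes of which 7 had counts, were 6.40 ± 0.37, 6.49 ± 0.26, 6.33 ± 0.29 and 6.27 ± 0.44. Their part in the inhibitors' values was not tested.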

How the data were processed

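Messenger RNA of cecum was sequenced from 21 mice with a stranded kit, per the labels' protocols. The authors deposited raw counts per gene for all libraries; the build is mm10, per the submitters' processing notes, and the sources used here name no aligner, counter or strand setting. All values were whole numbers, and every column was matched to a sample by its title. Symbols and coordinates came from GENCODE M21 (25268 of 25361 identifiers found; 93 were not).

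Groups are the labelled diets; replicate numbers follow accession order and pair nothing. The labels number animals, and mice were taken as independent. Chi-square per degree of freedom between libraries of a diet was at least 17.1, so none was a duplicate.

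All 21 libraries entered 1 fit in edgeR 4.0.16 (R 4.3.3; TMM, filterByExpr by diet, robust quasi-likelihood), which kept 15652 genes. The script was tested on simulated data. Log2 CPM used a prior count of 2, with adjusted p under 0.05 as the threshold for calling a gene. Alternatives used other scalings, no filter, DESeq2 1.42.0, limma 3.58.1 voom, only 2 groups, ranked doses, covariates, and left-out libraries. Permutation tests were two-sided with 100000 draws, or exact over the pairings of 6 libraries.

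The members and lists were chosen with earlier results of these data known. All 10 members are named; for each, the 3 tested genes with the highest Spearman's rho were found, and of the pathway lists any called gene or else the lowest p at 2.5% and for the slope. The slope's lowest p that are not given with values in the text were Csnk1a1, Mex3a and Efnb3, with adjusted p of 0.614, 0.850 and 0.803 by edgeR. Scores are means of log2 CPM; of the smooth muscle list, Synm had no counts. The floor of 3 counts covers counting error only.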

Additional observations from a re-analysis of the deposited data

Results flagged for a closer look

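Of 40 groups of libraries, 1 per member and diet, 5 held a library whose distance from the rest of its group passed Dixon's 95% criterion; chance gives about 1 in 20. Of these 5 values, 4 came from libraries with ileal signal. They include values of Olfm4, which is high only in those libraries. The counts are therefore a description and are not to be weighed against the chance rate. Olfm4 stood at 49.2 CPM in 0% replicate 5, where the next value was 0.101 CPM, and at 78.5 CPM in 1.0% replicate 1, where the next was 0.063 CPM. Axin2 stood at 28.7 CPM in 0% replicate 5 (next 17.6 CPM) and at 24.6 CPM in 1.0% replicate 1 (next 17.7 CPM). The value outside the ileal set was Ascl2 in 0.5% replicate 2, at 5.63 CPM, with the next at 3.50 CPM.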

How the results depend on the processing

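No alternative brought any of the 9 members other than Olfm4 to an adjusted p under 0.05. The counts of members called were 0 in all 49 settings and comparisons and in all 105 that left out 1 library. Among the 9 members other than Olfm4, the lowest adjusted p over these settings were 0.420 at 0.5%, 0.960 at 1.0%, 0.329 at 2.5% and 0.312 for the slope by edgeR. At an unadjusted p under 0.05, at most 2 of these 9 passed in any setting. Those that passed in some setting were Smoc2, Lrig1, Lgr5, Sox9 and Rnf43. The share of all genes under that threshold is not given for these settings, so the count is a description. No paired analysis was possible because replicate numbers follow accession order. Olfm4 had no value without the 6 libraries with ileal signal or with only 2 groups fitted.

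Of 393 log2 changes under other settings, 30 changed sign, most of them near 0. With the ileal score as covariate, log2 values were -0.0095 for Axin2 at 0.5%, -0.0052 for Ephb2 at 0.5%, 1.95 for Olfm4 at 0.5%, 2.64 for Olfm4 at 2.5% and 0.59 for Olfm4 (slope). With library totals as scaling, log2 values were -0.083 for Axin2 at 0.5%, -0.090 for Ephb2 at 0.5%, -0.083 for Rnf43 at 0.5% and -0.071 for Znrf3 at 0.5%. With limma voom, log2 values were 1.65 for Olfm4 at 0.5%, 1.30 for Olfm4 at 2.5%, 0.32 for Olfm4 (slope) and 0.0032 for Sox9 at 0.5%. With no filter on low counts, log2 values were -0.0089 for Ephb2 at 0.5% and -0.0062 for Rnf43 at 0.5%. With only 2 groups fitted, log2 values were -0.00095 for Ephb2 at 0.5%. With the smooth muscle score as covariate, log2 values were 1.74 for Olfm4 at 0.5%, 1.74 for Olfm4 at 2.5%, 0.21 for Olfm4 (slope) and 0.011 for Sox9 at 0.5%. Without the 3 animals numbered above 70, log2 values were -0.021 for Axin2 at 0.5%, 0.0051 for Sox9 at 0.5% and -0.015 for Znrf3 at 0.5%. Without the 6 libraries with ileal signal, log2 values were 0.061 for Axin2 at 2.5%, 0.010 for Axin2 (slope), 0.013 for Ephb2 at 1.0%, 0.17 for Ephb2 at 2.5%, 0.058 for Ephb2 (slope), 0.030 for Smoc2 (slope) and 0.15 for Sox9 at 0.5%. The causes were not tested.

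Leaving out 1 library at a time, the log2 changes whose sign turned ranged as follows. Ascl2 ranged from -0.033 to 0.16 at 1.0%. Axin2 at 0.5% ranged from -0.085 to 0.20, at 1.0% from -0.12 to 0.21, at 2.5% from -0.17 to 0.12, and its slope from -0.061 to 0.021. Ephb2 ranged from -0.064 to 0.11 at 0.5%, -0.13 to 0.052 at 2.5% and -0.056 to 0.0066 for the slope. Lgr5 ranged from -0.034 to 0.13 at 1.0%. Olfm4 at 0.5% ranged from -2.15 to 6.96, at 1.0% from -7.73 to 8.78, at 2.5% from -2.44 to 6.48, and its slope from -0.71 to 0.45. Rnf43 ranged from -0.031 to 0.058 at 0.5%. Smoc2 ranged from -0.042 to 0.011 for the slope. Sox9 ranged from -0.15 to 0.064 at 0.5%. Znrf3 ranged from -0.038 to 0.054 at 0.5%.

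Of 121 recomputed relations with marker scores, 9 changed sign. With library totals as scaling, r was 0.014 for Axin2 and smooth muscle (21 libraries), 0.47 for Rnf43 and ileal (6 libraries), 0.041 for Znrf3 and epithelium (21 libraries) and 0.14 for Znrf3 and ileal (6 libraries). Without the 2 libraries farthest from the median score, r was 0.24 for Lgr5 and smooth muscle (21 libraries), -0.013 for Lrig1 and epithelium (21 libraries), -0.054 for Rnf43 and epithelium (21 libraries), 0.38 for Rnf43 and ileal (15 libraries) and 0.11 for Rnf43 and smooth muscle (21 libraries).

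The genes called over the whole table were 1 at 0.5%, 0 at 1.0%, 17 at 2.5%, 23 for the slope and 4 for any difference. By DESeq2 they were 2 at 0.5%, 80 at 2.5%, 60 for the slope and 68 for any difference, and by voom 0, 7, 9 and 0. Without the 6 libraries with ileal signal they were 0, 121, 101 and 86, and without the 3 animals numbered above 70 they were 0, 5, 13 and 0, in the same order. The smooth muscle score gave 4 at 0.5%, 8 at 2.5% and 7 for the slope, the ileal score 15 for the slope, library totals 7 at 2.5%, ranked doses 0 for the slope, and 2 groups only 0 at 0.5% and 0 at 2.5%. Leaving out 1 library at a time they ranged from 0 to 2 at 0.5%, 0 to 56 at 2.5%, 0 to 56 for the slope and 0 to 35 for any difference. At 2.5%, no gene passed without replicate 3, 4 or 5 of that diet, 56 passed without its replicate 1 and 53 without its replicate 2, and without any other single library the count was 2 to 22. At these depths the intervals of the 9 members leave changes of up to 1.57 times open, and Olfm4 cannot be compared.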
